A study of Mus musculus with 6 samples.

Results

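The genes described here carry calcium and magnesium across the epithelium of the distal nephron, or sense calcium and vitamin D there: the channels Trpv4, Trpv5, Trpv6 and Trpm6, the calcium buffer Calb1, the basolateral exchanger Slc8a1 and pumps Atp2b1 and Atp2b4, and the receptors Vdr and Casr. These 10 genes were named for their roles, with earlier results of these data known. Of them, 9 had at least 1 probe set annotated to that gene alone, 20 probe sets in all, among 18193 genes and 45037 probe sets. Where a gene had several probe sets, the one with the greatest mean signal stands for it. Trpv5 had no such probe set in the annotation used and was not analysed here. The samples were 6 lines of mpkCCD cells (mouse, derived from cortical collecting duct), each measured on 1 array. Clone 2 is described in the labels as not expressing the water channel aquaporin 2 (AQP2, encoded by Aqp2). The labels describe the original cells and 4 more clones (3, 9, 10, 11) as expressing it. All lines were kept with 0.1 nM of the vasopressin analog dDAVP for 5 days, so no line was without the hormone. The design text describes the clones as grown out of the original cells, although the sample title of the original cells also calls them a clone. No genetic change, mouse strain or passage is given for any line in the sources used here.

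In the distal convoluted and connecting tubule, calcium enters the cell from the urine through the apical channels TRPV5 and TRPV6, is carried through the cytosol by calbindins, and leaves on the blood side through sodium-calcium exchangers and plasma membrane calcium pumps. The vitamin D receptor, bound to its hormone and paired with a retinoid X receptor, raises transcription of several of these genes, TRPV6 and the small calbindin gene S100g among them. Principal cells of the cortical collecting duct are best known for water and sodium transport, and calcium handling of this kind is mainly assigned to the segments just upstream.

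The values were MAS5 signals, which are fluorescence intensities on a linear scale. Since each line has 1 array, an effect of the line cannot be told apart from one of its dish or its array, and p-values rest on the spread between the 5 expressing lines, which clone 2 was assumed to share. Median signals were 79.6 in clone 2 and 84.3 to 88.6 in the expressing lines. All 9 principal cell markers and all 4 epithelial markers lay above the array median in every line. The summed principal cell signal, which includes Aqp2, was 8229 in clone 2, against 16209 to 22673 in the expressing lines. Besides Aqp2, the markers Scnn1a, Scnn1g, Gata3, Hsd11b2 and Fxyd4 were lowest in clone 2. Gata3 (limma adjusted p = 0.0146) and Fxyd4 (limma adjusted p = 0.00977) passed the test used below, while Scnn1a, Scnn1g and Hsd11b2 did not. Of all genes tested, 1.86% passed it with a lower signal in clone 2. Avpr2 (1742) and Scnn1b (194) lay inside the range of the expressing lines, and Aqp3 was highest in clone 2, at 192, against 96.4 to 150. Of the markers of distal convoluted and connecting tubule, 3 of 4 were measured, and their sum was 186 in clone 2, against 346 to 473. Klk1, a kallikrein of the connecting tubule, made up most of that sum, with 138 in clone 2, against 269 to 390 (limma adjusted p = 0.058). Slc12a3, the sodium chloride cotransporter that defines the distal convoluted tubule, had 8.90 in clone 2, inside the range of 5.98 to 43.2, and Pvalb had 38.9, inside 36.7 to 76.8. The summed signal was 1069 in clone 2, against 512 to 789, for 5 intercalated cell markers, of which 1 lay above the array median in every line, and 365, against 35.9 to 100.3, for 4 markers of the thick ascending limb, of which none did. Atp6v1b1 made up most of the intercalated sum, with 949 in clone 2, against 413 to 687, and did not pass the test. Slc26a4 had 54.6 in clone 2, against 29.6 to 41.6, while Slc4a1, Foxi1 and Atp6v0d2 lay inside the range of the expressing lines. Whether these levels have a part in the values below was not tested. None of the fibroblast, leukocyte or endothelial markers lay above the array median in every line, and no marker was listed at 0. Aqp2 had 159 in clone 2, against 1066 to 6578 in the expressing lines.

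Across the 9 measured genes, clone 2 differed most in Trpv6, which was higher there than in every expressing line. Of the 4 genes that passed the filter on mean signal, which were Trpv4, Trpv6, Trpm6 and Atp2b1, 1 passed the test, while 3.14% of all 10342 genes tested did so and 1.29% did so with a higher signal in clone 2. Because a gene could pass the filter through clone 2 alone, that count is not read as a property of the group. The signal of clone 2 lay above all 5 expressing lines for Trpv6 and Trpm6 and below all 5 for Trpv4, Slc8a1, Atp2b1 and Vdr. Of all 18193 genes, 22.5% lay above and 23.5% below all 5, so that 6 of 9 members outside the range compare with 46% of genes. That count is not read as an excess. The place of Slc8a1 rests on 5.14 in clone 2 against a lowest expressing line of 5.41, at low signal. Other probe sets of Slc8a1 and Trpm6 did not all repeat the position. In such samples, fewer cells that express a gene and less RNA per cell cannot be told apart. The plot of signals by line shows these positions.

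**Figure D1:**
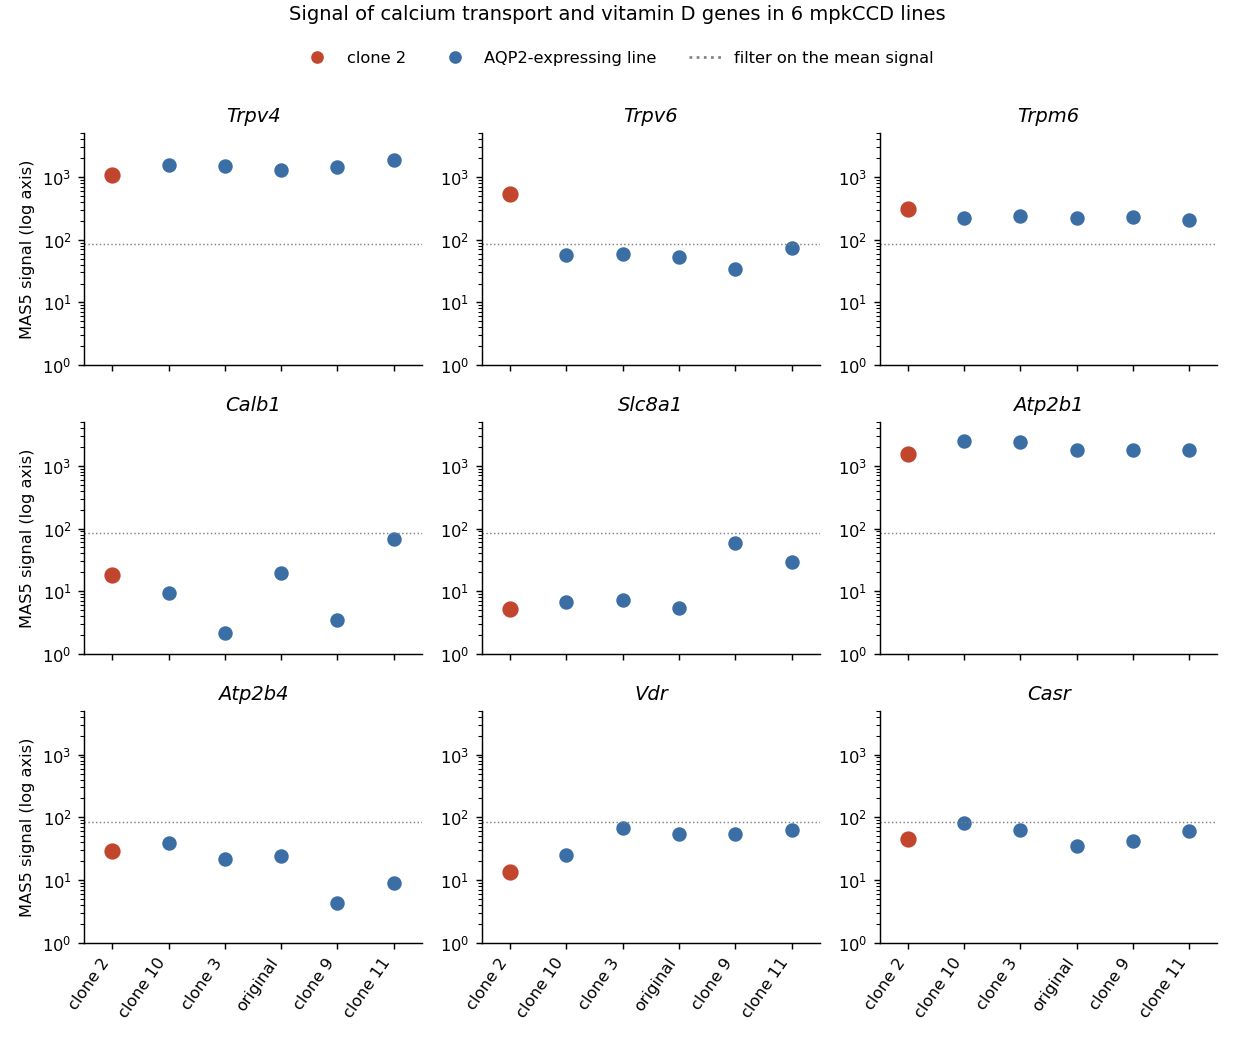
MAS5 signal on a log axis for the 9 measured genes in each of 6 lines, with 1 array per line. Clone 2 is leftmost, the expressing lines follow in order of rising Aqp2 signal, and the dotted line is the filter on the mean signal, 85.5. Trpv6 was 526 in clone 2 and at most 72.9 elsewhere, while Vdr was lowest in clone 2.

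Trpv6 encodes the apical channel highly selective for calcium. Its gene lies on the minus strand of chromosome 6, chr6:41620619-41636405 in GRCm38.p6. Its signal was 526 in clone 2, against 58.9 in clone 3, 33.6 in clone 9, 56.1 in clone 10, 72.9 in clone 11 and 53.0 in the original cells. The groups did not overlap, and all 5 expressing lines lay within 2.17 times of each other. The mean of the expressing lines was 54.9 ± 14.1 (SD, n = 5), so that the signal in clone 2 was 9.58 times that mean. The log2 difference was 2.91 (SE 0.38, 95% interval 2.05 to 3.77, limma adjusted p = 0.00966). Clone 2 placed the probe set at the 75.1th percentile of its array, while the expressing lines placed it between the 33.4th and the 47.7th. The mean of the expressing lines was below the filter of 85.5, so Trpv6 entered the test only through clone 2. Without any filter the adjusted p was 0.0306.

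The promoters of Trpv6 and of Vdr, the receptor that acts on it, are shown because in clone 2 the Trpv6 and Vdr signals lay on opposite sides of those of the expressing lines, and that of S100g because its signal was high in clone 2 as well. Sequences are from RefSeq, build GRCm38.p6, and cover 250 bases before to 50 bases after the annotated start. Capitals mark single half-sites of the kind that nuclear receptors such as the vitamin D receptor bind, searched on both strands as AGGTCA, with the variants GGGTCA, then AGTTCA, then GGTTCA. The Trpv6 promoter is chr6:41636356-41636655, minus strand, that of S100g is chrX:162964550-162964849, minus strand, and that of Vdr is chr15:97908247-97908546, minus strand.
Trpv6: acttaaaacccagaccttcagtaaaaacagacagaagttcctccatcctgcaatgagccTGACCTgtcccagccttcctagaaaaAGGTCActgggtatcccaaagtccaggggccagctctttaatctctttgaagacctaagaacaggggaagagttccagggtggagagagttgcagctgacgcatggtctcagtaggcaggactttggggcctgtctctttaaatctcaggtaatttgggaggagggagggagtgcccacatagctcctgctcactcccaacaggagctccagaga
S100g: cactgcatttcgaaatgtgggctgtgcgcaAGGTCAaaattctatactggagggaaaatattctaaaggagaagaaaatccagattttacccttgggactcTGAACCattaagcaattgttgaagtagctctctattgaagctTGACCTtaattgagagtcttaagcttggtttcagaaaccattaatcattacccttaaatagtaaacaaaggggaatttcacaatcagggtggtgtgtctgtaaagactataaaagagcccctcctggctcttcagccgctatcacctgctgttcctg
Vdr: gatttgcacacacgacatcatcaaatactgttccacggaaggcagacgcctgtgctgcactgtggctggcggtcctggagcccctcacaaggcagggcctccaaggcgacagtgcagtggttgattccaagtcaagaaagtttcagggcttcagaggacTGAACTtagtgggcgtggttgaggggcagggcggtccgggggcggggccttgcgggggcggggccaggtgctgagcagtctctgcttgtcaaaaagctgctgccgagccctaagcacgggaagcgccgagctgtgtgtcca
The Trpv6 window held 2 such half-sites, the S100g window 3 and the Vdr window 1, and 43.7% of 32851 promoter windows of this length held at least 1. A pair of these half-sites in the same orientation with 3 bases between them, the arrangement the vitamin D receptor is best known to bind, was in none of these windows and in 0.0396% of all. Among the other members with a window, Trpm6 held 1 half-site and the rest none, and Calb1 had no entry. These are letter matches in short windows and not binding sites.

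Trpv4 (chr5:114622152-114658435), a calcium-permeable channel that responds to swelling and flow, was among the brighter probe sets in every line. Its signal was 1061 in clone 2, against 1514 in clone 3, 1460 in clone 9, 1537 in clone 10, 1831 in clone 11 and 1305 in the original cells. Clone 2 was the lowest line and clone 11 the highest. The expressing lines averaged 1529 ± 191 (SD, n = 5), and the log2 difference of -0.51 (SE 0.19, 95% interval -0.93 to -0.09) did not pass the test after adjustment (limma adjusted p = 0.174).

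Trpm6 (chr19:18730177-18892521), the apical magnesium channel of the distal convoluted tubule, had a signal of 313 in clone 2, against 240 in clone 3, 232 in clone 9, 222 in clone 10, 203 in clone 11 and 223 in the original cells. These 5 expressing lines were close together, at 224 ± 13.8 (SD, n = 5), and clone 2 lay above all of them. The log2 difference of 0.45 (SE 0.21, 95% interval -0.03 to 0.94) did not pass the test (limma adjusted p = 0.273). A second probe set of Trpm6 did not show clone 2 highest, with 71.7 there, inside a range of 14.3 to 156 in the expressing lines. Its log2 difference of -0.09 had an SE of 0.75, too wide to decide between them.

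Calb1 (chr4:15881264-15906709), the large cytosolic calbindin of the distal tubule, lay below the median of every array. Its brightest probe set had 18.3 in clone 2, against 2.20 in clone 3, 3.47 in clone 9, 9.32 in clone 10, 67.2 in clone 11 and 19.6 in the original cells. Clone 2 lay inside the range of the others, and the highest value, in clone 11, was at the 46.2th percentile. The other 3 probe sets of Calb1 had at most 22.8 in any line, and clone 2 lay below all expressing lines in 1 of them. Calb1 did not pass the filter.

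Among the genes of basolateral exit, only Atp2b1 (chr10:98914630-99026143), the widely expressed plasma membrane calcium pump, had a signal well above the filter. Atp2b1 had 1534 in clone 2, against 2376 in clone 3, 1784 in clone 9, 2493 in clone 10, 1779 in clone 11 and 1762 in the original cells. Clone 2 was lowest, and the expressing lines fell into a brighter pair, clones 3 and 10, and 3 lines close to each other. Their mean was 2039 ± 364 (SD, n = 5), and the log2 difference of -0.39 (SE 0.22, 95% interval -0.89 to 0.11) did not pass the test (limma adjusted p = 0.366). The other probe sets gave log2 differences of -0.80 and -0.49, again with clone 2 below all expressing lines, and did not pass the test (limma adjusted p = 0.106 and 0.259). Genes of chromosome 10, where Atp2b1 lies, had a median log2 difference of -0.24 in clone 2, and with each array centred on that chromosome the difference of Atp2b1 was -0.077 (limma adjusted p = 0.881).

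Slc8a1 (chr17:81373105-81738387), the sodium-calcium exchanger, and Atp2b4 (chr1:133702674-133801059), another plasma membrane calcium pump, were low in all lines. Slc8a1 had 5.14 in clone 2, against 7.29 in clone 3, 58.3 in clone 9, 6.85 in clone 10, 29.0 in clone 11 and 5.41 in the original cells. Clones 9 and 11 stood above the other 4 lines, but the 3 further probe sets of Slc8a1 did not repeat this: one of them was highest in clone 2, one in clone 3 and one in the original cells. Atp2b4 had 28.7 in clone 2, against 22.1 in clone 3, 4.39 in clone 9, 38.6 in clone 10, 9.07 in clone 11 and 24.6 in the original cells, with clone 2 inside the range. Neither gene passed the filter.

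Vdr (chr15:97854427-97908296), the vitamin D receptor, was lowest in clone 2 by both of its probe sets, at low signal. The brighter one had 13.6 in clone 2, against 67.5 in clone 3, 54.1 in clone 9, 25.2 in clone 10, 63.8 in clone 11 and 54.2 in the original cells. The other had 11.1 in clone 2, against 55.9, 34.2, 23.9, 68.6 and 47.1 in the same lines. In both, clone 10 was the lowest of the expressing lines, and clone 2 was lower still. The log2 difference was -1.11 and -1.07. Vdr did not pass the filter, and in the fit with no filter the brighter probe set had limma adjusted p = 0.394 (0.0476 before adjustment). The mean over expressing lines was 53.0 ± 16.6 (SD, n = 5), and no line reached beyond the 46.6th percentile of its array. Genes of chromosome 15, where Vdr lies, had a median log2 difference of 0.17 in clone 2, and centred on that chromosome the difference of Vdr was -1.31. Whether a shift of the chromosome has a part in the Vdr value was not tested.

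Casr (chr16:36490585-36562141), the calcium-sensing receptor, had 44.5 in clone 2, against 63.5 in clone 3, 41.8 in clone 9, 82.0 in clone 10, 60.0 in clone 11 and 35.2 in the original cells. Clone 2 lay inside the range, and Casr did not pass the filter. In the fit with no filter, 1 of 9 genes, Trpv6, passed the test, while 0.665% of all genes did. The lowest limma adjusted p among the other 8 was 0.262, for Trpv4.

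**Figure D2:**
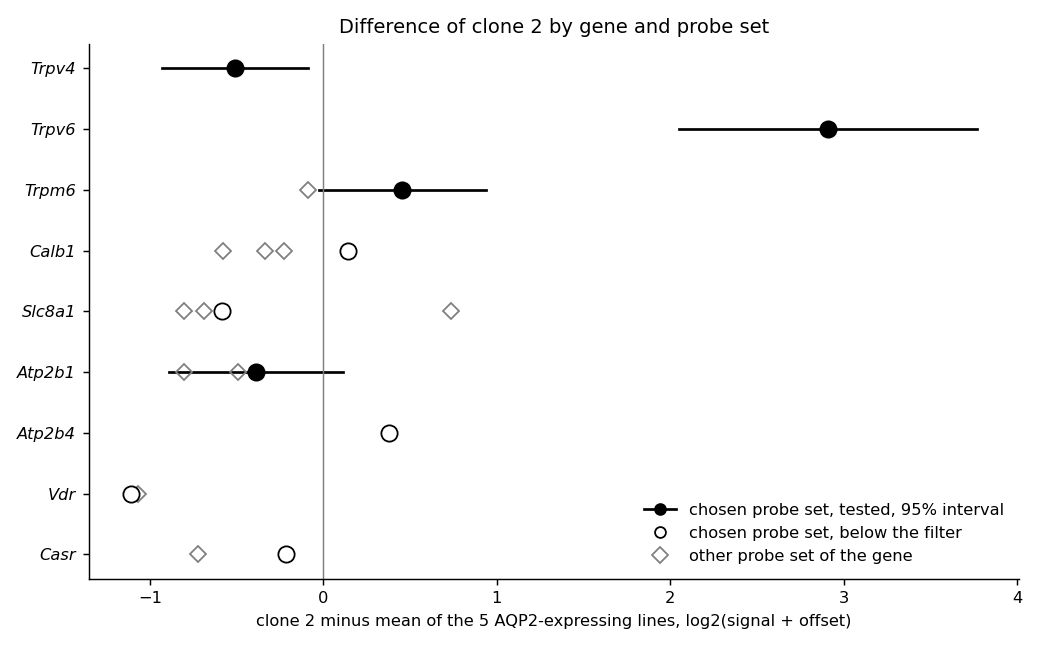
Log2 difference of clone 2 from the mean of the 5 expressing lines, on the scale log2(signal + 18.8), for every probe set of the 9 measured genes. Filled circles are chosen probe sets that were tested, with the 95% interval, open circles are those below the filter, and diamonds are other probe sets of the same gene. Trpv6 stands at 2.91, and both Vdr probe sets lie near -1.1.

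The series' design text asks which transcripts follow Aqp2 among the lines, so the log2 signal of each gene was also fitted against that of Aqp2. None of the 4 genes past the filter passed this test, while 2.22% of all genes did. The slope of Trpv6 was -0.54 log2 units per log2 unit of Aqp2 (SE 0.13, limma adjusted p = 0.0691), and without clone 10 it passed the test (slope -0.58, limma adjusted p = 0.0384), when 3.54% of all genes did. Over the 5 expressing lines alone the slope of Trpv6 was -0.015 (95% interval -0.46 to 0.43, limma adjusted p = 0.987), an interval that includes 0. Atp2b1 had a slope of 0.016 over all 6 lines. Over the expressing lines it was -0.22 (95% interval -0.35 to -0.086), which did not pass the test (limma adjusted p = 0.268), with clones 10 and 3, lowest in Aqp2, at the top. The slope of Vdr, below the filter, was 0.26 over all lines and 0.23 over the expressing lines.

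**Figure D3:**
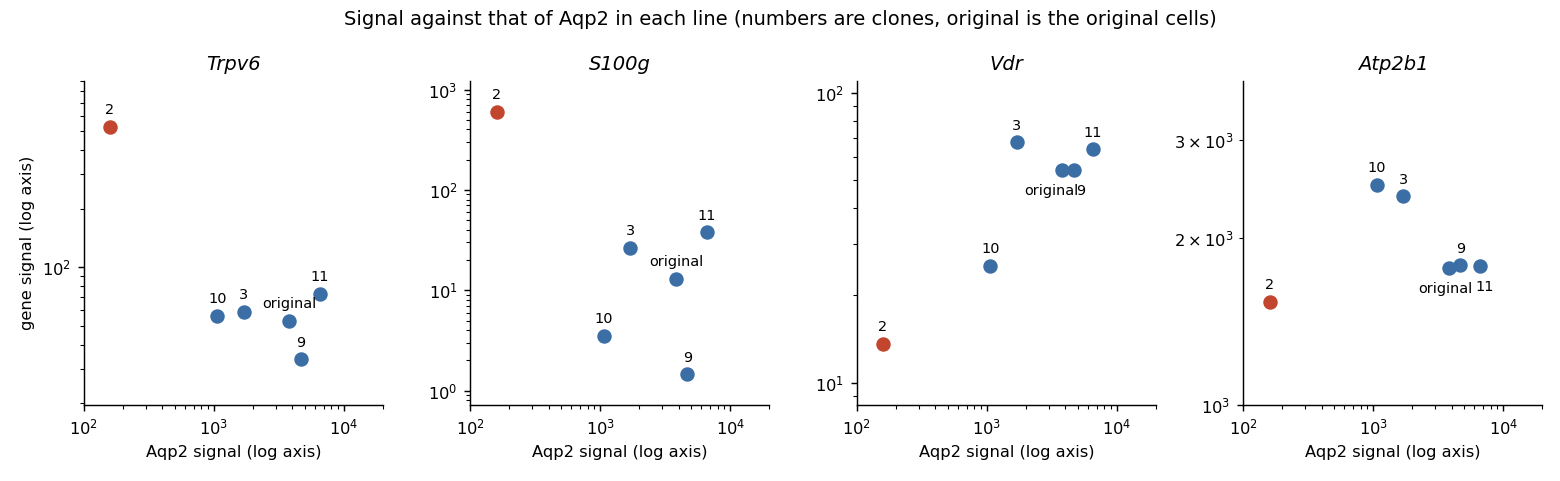
Signal of Trpv6, S100g, Vdr and Atp2b1 against the signal of Aqp2 in each line, both on log axes, with 1 array per line. Clone 2, at an Aqp2 signal of 159, is far above the other lines in Trpv6 and S100g and lowest in Vdr and Atp2b1.

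Other genes of calcium, magnesium and vitamin D handling were taken from a list of 76, of which 66 had a probe set and 37 passed the filter. Of these 37, 1 rose and 3 fell in clone 2, and 33 did not pass the test, while 1.29% of all genes tested rose and 1.86% fell. The gene that rose entered the test only through clone 2, and the balance depended on the setting. With no filter, 66 list genes were tested, and 2 rose and 1 fell, while 0.665% of all genes passed. Without clone 10, 2 of the 37 rose and 2 fell, while 344 of all 22518 probe sets tested were called. With no offset, 0 of the 37 rose and 3 fell, while 606 of the 22518 were called. The median log2 difference of the 37 was -0.11, beside 0.01 over all genes tested. The 4 genes of the first count were S100g, Lrp2 and Rxra among 5 tested genes of vitamin D supply, metabolism and targets, and Slc41a2 among 10 of magnesium handling.

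S100g, the small calbindin that vitamin D is known to induce, had 599 in clone 2, against 26.4 in clone 3, 1.46 in clone 9, 3.50 in clone 10, 37.8 in clone 11 and 13.1 in the original cells. The groups did not overlap, and the expressing lines all lay below their array medians. The log2 difference was 4.24 (SE 0.65, limma adjusted p = 0.0169), and the call was lost without the original cells (log2 difference 4.24, limma adjusted p = 0.0514) and with no offset before the logarithm (6.02, limma adjusted p = 0.142). With a doubled offset the log2 difference was 3.60. Like Trpv6, S100g passed the filter only through clone 2. It lies on the X chromosome, whose genes had a median log2 difference of 0.47, and centred on that chromosome it was 3.73 (limma adjusted p = 0.0424). For Trpv6 the median of chromosome 6 was 0.13 and the centred difference 2.77 (limma adjusted p = 0.0152).

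Cyp24a1 and Cyp27b1, genes of vitamin D metabolism, both fell below the filter. Cyp24a1, the enzyme that breaks down the active hormone and is a classical target of the receptor, had 18.2 in clone 2, against 26.3 ± 7.62 (SD, n = 5), below the filter. Cyp27b1, the enzyme that makes the active hormone, had 19.7 in clone 2, against 26.4 ± 10.3. Both enzymes were named after their values were seen. Whether vitamin D signalling has a part in the Trpv6 and S100g values was not tested.

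Rxra, the retinoid partner of the vitamin D receptor, had 555 in clone 2 and 924 ± 25.5 in the expressing lines (SD, n = 5). The log2 difference was -0.72 (limma adjusted p = 0.047), and it lost its call in 10 of 15 alternative settings. Averaged over its probe sets past the filter the difference was -0.36 (limma adjusted p = 0.216). Its relative Rxrb had 1818 in clone 2, inside the range of 1789 to 2513. Lrp2, which encodes megalin, the receptor that takes up the vitamin D carrier in the proximal tubule, had 116 in clone 2, against 942 ± 121 (log2 difference -2.83, limma adjusted p = 0.00247). Slc41a2, a magnesium transporter, had 68.1 in clone 2, against 277 ± 52.1, with the lowest expressing line at 230 (log2 difference -1.75, SE 0.27, limma adjusted p = 0.0193, and 0.0501 with no filter).

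In the remaining lists no gene passed the test. None of 5 hormone receptors and regulators did, the brightest being the G protein Gna11 with 2529 in clone 2, against 3031 ± 505. None of 5 partners of the apical channels did, with the annexin Anxa2, which helps bring these channels to the membrane, at 10468 in clone 2, against 11327 ± 2090. None of 5 other pumps and exchangers did, with Atp2a2, the calcium pump of the endoplasmic reticulum, at 6863 in clone 2, against 6078 ± 407. None of 7 other channels and store sensors did, with the inositol trisphosphate receptor Itpr3 at 1636 in clone 2, against 2247 ± 210 (SD, n = 5 throughout). The 4 claudins of the paracellular route and the 2 other calcium buffers all fell below the filter.

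**Figure D4:**
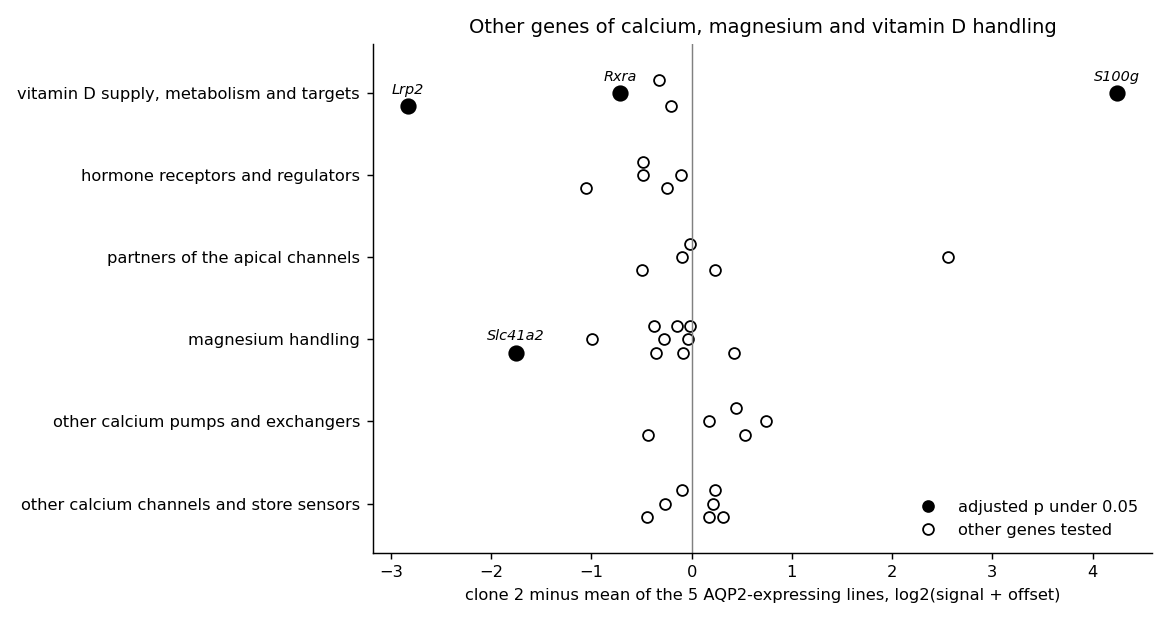
Log2 difference of clone 2 from the mean of the 5 expressing lines for the 37 other genes past the filter, by list, on the scale log2(signal + 18.8). Filled circles passed the test: S100g at 4.24, Rxra at -0.72, Lrp2 at -2.83 and Slc41a2 at -1.75.

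Trpv6 was also set beside its neighbours on chromosome 6. Ephb6, a receptor of the ephrin family, ends 109 bases from Trpv6, at chr6:41603834-41620509 in GRCm38.p6. Its signal was 464 in clone 2, against 51.4 in clone 3, 6.57 in clone 9, 107 in clone 10, 6.34 in clone 11 and 20.4 in the original cells. Clone 2 lay above all of them, but the spread between the expressing lines was wide, and the log2 difference of 3.37 did not pass the test (limma adjusted p = 0.0682). The nearest genes past the filter were Ssbp1 beyond Ephb6 on the side of lower coordinates and Gstk1 and Tmem139 on the other side, with log2 differences of 0.10, 1.01 and 0.37, and these did not pass the test (limma adjusted p = 0.815, 0.135 and 0.353).

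**Figure D5:**
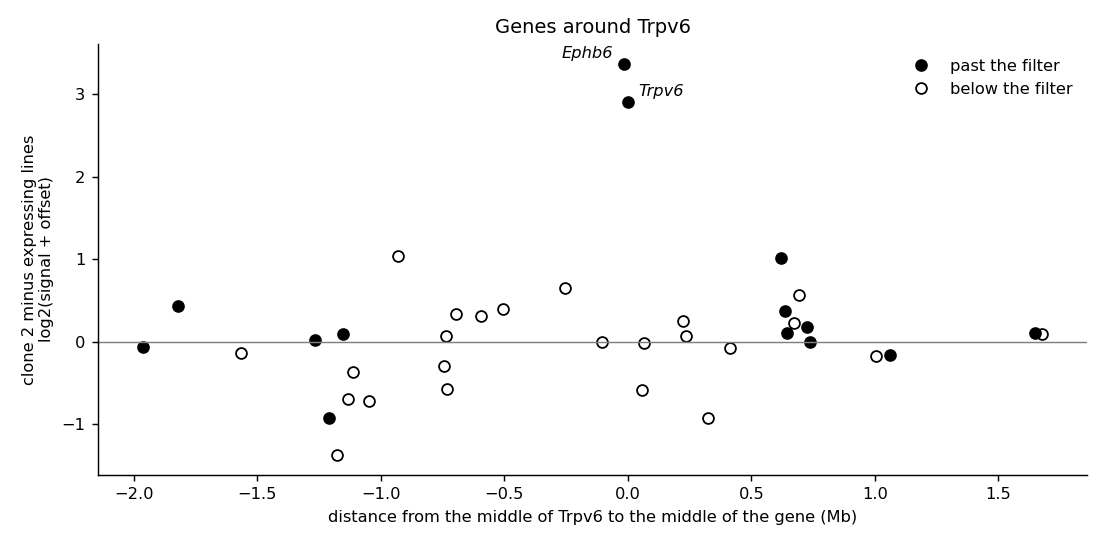
Log2 difference of clone 2 from the mean of the 5 expressing lines for genes within 2 Mb of Trpv6, plotted by distance between gene middles. Filled circles passed the filter, Ephb6 and Trpv6 only through clone 2, and open circles did not. Ephb6 at 3.37 and Trpv6 at 2.91 stand above every other gene shown, of which the highest was 1.04.

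Over the 6 arrays, the genes whose log2 signal was most like that of Trpv6 among 10341 others were Vma21 (Pearson r = 0.996), Mfge8 (0.994) and Foxo4 (0.994). Their differences were smaller than that of Trpv6, with Vma21 at 1315 in clone 2, against 689 ± 56.4 (SD, n = 5), and all had their highest value in clone 2. These correlations describe 6 arrays, of which clone 2 alone stands far from the rest.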

How the data were processed

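The deposited files hold linear intensities (MAS5 signals) for 6 Affymetrix arrays. The submitters' processing notes name MAS5 and Affymetrix Expression Console 1.1. Leaving out 2% of values at either end, every array averaged 500.003 or 500.002. The scaling target is not given in the sources used here, and no detection calls were used. Mismatch subtraction in MAS5 makes low signals noisy.

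Control probe sets (64) were left out. Symbols came from the platform annotation, updated through gene identifiers with a RefSeq gene list (GRCm38.p6). Among the 45037 remaining, 34945 had 1 gene, 932 several and 9160 none named, and 34741 had a current symbol. Signals were used as log2(signal + 18.8), the offset being their 25th percentile, which shrinks differences at low signal. The filter kept probe sets whose mean exceeded 85.5, the median (22518 probe sets, 10342 genes), and the test was that of limma 3.58.1 (R 4.3.3), with a mean-variance trend, 4 residual degrees of freedom and Benjamini-Hochberg adjustment over probe sets, two-sided, at 0.05. The slope fit left out Aqp2. The fit was tested on simulated data.

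The genes and lists were chosen with earlier results of these data known. Named were all members, list genes past the test, the brightest tested gene of other lists, Aqp2, neighbours of a called member and the 3 genes most like it. Others were chosen after their values were seen (Cyp24a1, Cyp27b1, Rxrb, Cldn16, Umod, Slc12a1, Slc12a3, Klk1, Pvalb, Tgm2 and Fxyd2). The same holds for the principal and intercalated cell markers other than Aqp2 that are named singly. Alternatives were no offset or a doubled one, a filter at the 75th percentile or none, quantile normalization, median or chromosome centring, no trend, a robust fit, gene means over probe sets, and each expressing line left out.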

Additional observations from a re-analysis of the deposited data

Results flagged for a closer look

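Among the 5 expressing lines, the Vdr signal of clone 10 (25.2) stood apart from the others (54.1 to 67.5). Its gap to the nearest line, on the log2 scale, was 0.750 of the whole range, above the critical value of 0.71 for 5 samples. Of 13 genes examined this way it was the only one, and chance gives about 1 such group in 20. The second Vdr probe set was also lowest in clone 10 among the expressing lines, at 23.9. There clone 9 was next at 34.2, with the others from 47.1 to 68.6, and the gap was not examined for that probe set.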

How the results depend on the processing

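Trpv6 kept its direction and its call in all 14 alternative settings that tested it, with a log2 difference between 2.62 and 3.30 and limma adjusted p between 0.00544 and 0.0313. All of these settings reuse the single array of clone 2, so they are not independent checks. Except for the fit with no filter, all kept a filter that Trpv6 passed only through clone 2. With the filter at the 75th percentile Trpv6 was not tested. There 0 of 2 members and 2 of 22 list genes were called, beside 499 of all 11259 probe sets tested. Leaving out each expressing line in turn gave 1 member in the clone 2 comparison, 0 to 1 on the slope and 2 to 4 list genes, the lowest without the original cells. The slope of Atp2b1 was -0.026 with chromosome centring and -0.22 over the expressing lines, and the cause was not tested. Rxra lost its call, with log2 differences of -0.36 to -0.73, with no filter, quantile normalization, median or chromosome centring, no trend, gene means and without clones 3, 10, 11 or the original cells (limma adjusted p from 0.0363 to 0.216 over all settings).

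Over all probe sets, 560 were called in clone 2, but 210 with no filter, 219 without trend, 284 with chromosome centring (19134 tested), 287 of 10342 gene means, and 154 to 943 with 1 line left out. On the slope 397 were called, but 51 with no filter, 1 without trend, 132 with chromosome centring, 162 gene means, 3 over the expressing lines and 0 (without clone 11) to 645 (without clone 10) with 1 line left out. Low signal limits Calb1, Slc8a1, Atp2b4, Vdr and Casr, and with no offset the log2 difference was 0.89 for Calb1, -1.40 for Slc8a1, 0.91 for Atp2b4, -1.88 for Vdr and -0.28 for Casr. No paired analysis was possible because the labels give no replicate numbers and clone 2 has 1 array.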

Other observations

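Cldn16, a claudin of the paracellular calcium and magnesium route of the thick ascending limb, fell below the filter on mean signal but was high in clone 2 alone. It had 198 in clone 2, against 2.88 in clone 3, 3.00 in clone 9, 2.70 in clone 10, 6.12 in clone 11 and 5.64 in the original cells. In the fit with no filter its log2 difference was 3.25 (SE 0.32, limma adjusted p = 0.0119). Umod, which encodes uromodulin of the same segment, had 113 in clone 2, against 4.06 to 36.0 in the expressing lines, while Slc12a1, the cotransporter that defines the segment, had 23.7 in clone 2, inside a range of 2.77 to 46.0. The 4 markers of the thick ascending limb summed to 365 in clone 2, against 35.9 to 100.3, and none lay above the array median in every line. Their part in the Trpv6 and S100g values was not tested.

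A further pair of list genes varied widely among the expressing lines. Tgm2, a transglutaminase, had 621 in clone 2 and between 37.2 and 587 in the expressing lines, and its log2 difference of 2.56 did not pass the test (limma adjusted p = 0.222). Fxyd2, a sodium pump subunit linked to magnesium loss, had 1115 in clone 2, inside a range of 197 to 2194 (limma adjusted p = 0.996).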
